A study of Mus musculus with 50 samples.

Results

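The Hox genes encode the homeodomain transcription factors that give cells of the embryo their address along the body axis and along the limb. They lie in 4 clusters, Hoxa to Hoxd, and members of different clusters that descend from one ancestral gene carry the same paralog number. Within a cluster the genes of low number are used toward the head and the genes of high number toward the tail and the tip of the limb, and adult connective tissue cells are known to keep much of the Hox pattern of the place they came from. Here the Hox genes were read in mouse sarcomas of the hind limb. A row was taken as a Hox gene where its identifier matched a symbol made of Hox, a cluster letter and a number, which gave 37 of the 37469 rows of the count table. The Hoxa cluster on chromosome 6 had 11 of them, the Hoxb cluster on chromosome 11 had 9, the Hoxc cluster on chromosome 15 had 9 and the Hoxd cluster on chromosome 2 had 8. Hoxb1 and Hoxd4 were not analysed here.

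RNA was sequenced from 48 p53/MCA sarcomas of 129/SvJae mice. The 32 primary tumors arose in p53FL/FL mice, 6 to 10 weeks old at the start, after Adeno-Cre (an adenovirus that carries the Cre recombinase and deletes Trp53 where it is injected) and 300 µg of the carcinogen MCA had been put into the gastrocnemius, the calf muscle. The 16 transplant tumors, called allografts in the labels, grew from 50000 cells of one line, 402230, placed in the gastrocnemius of syngeneic mice, so that all of them descend from 1 sarcoma and what belongs to transplantation and what belongs to that line cannot be told apart. Each tumor had 0 or 20 Gy of radiation to the limb and 200 µg of an isotype control antibody or of muDX400, which blocks the checkpoint receptor PD-1, and was taken 3 days later, which gave 8 primary and 4 transplant libraries for each treatment. Each tumor came from its own mouse. Single libraries of the parental sarcoma and of line 402230, both labelled 0 Gy and isotype, stood beside them without replicates and entered no test.

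Total counts per tumor ran from 31810461 to 54008259, so that 1 CPM (a read count scaled to library size, by TMM over the 50 libraries) rested on about 31.8 reads in the smallest library. Trp53, the deleted gene, stood between 19.7 and 61.0 CPM in the 48 tumors, which hold host cells in which it was not deleted, and a count per gene does not show which exons were read. The libraries of line 402230 went against their labels. In the library labelled parental tumor the summed level of 10 blood cell genes was 1.23 CPM, that of 6 endothelial genes 1.95 CPM and that of 9 skeletal muscle genes 3.59 CPM, each below all 48 tumors. All 10 blood cell genes were under 1 CPM there, and the blood cell gene Ptprc and the endothelial gene Pecam1 were both at 0.114 CPM. In the library labelled cell line the same lists summed to 634, 427 and 250 CPM, of which the blood cell sum was below all 48 tumors and the other sums were within their range, and Ptprc stood at 81.6 CPM (56.9 to 614 CPM in the tumors). Both libraries are therefore called by their labels below.

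Promoter sequences were found for 20 of the 37 Hox genes among RefSeq windows on GRCm38.p6, and those of 4 genes are shown. Hoxd8 and Hoxd10 stand for the Hoxd genes that were higher in transplant tumors, Hoxa10 for an abundant gene that did not pass the test between the models and Hoxb4 for the Hoxb cluster. Each run is the 250 bases before the start, 5′ to 3′ on the strand of the gene, with CpG dinucleotides in capitals, and none of these bases lies in an exon of GENCODE M21.
Hoxd8 (chr2:74704365-74704614, + strand): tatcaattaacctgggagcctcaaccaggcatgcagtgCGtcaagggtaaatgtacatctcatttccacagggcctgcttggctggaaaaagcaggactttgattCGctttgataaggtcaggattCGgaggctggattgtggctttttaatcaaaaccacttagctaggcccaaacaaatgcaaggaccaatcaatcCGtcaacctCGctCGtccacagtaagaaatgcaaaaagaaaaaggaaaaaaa
Hoxd10 (chr2:74691641-74691890, + strand): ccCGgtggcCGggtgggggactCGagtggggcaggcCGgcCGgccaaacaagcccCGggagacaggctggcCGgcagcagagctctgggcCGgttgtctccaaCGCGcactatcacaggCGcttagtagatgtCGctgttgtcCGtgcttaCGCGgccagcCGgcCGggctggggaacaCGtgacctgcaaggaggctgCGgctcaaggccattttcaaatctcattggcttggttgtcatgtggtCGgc
Hoxa10 (chr6:52240855-52241104, - strand): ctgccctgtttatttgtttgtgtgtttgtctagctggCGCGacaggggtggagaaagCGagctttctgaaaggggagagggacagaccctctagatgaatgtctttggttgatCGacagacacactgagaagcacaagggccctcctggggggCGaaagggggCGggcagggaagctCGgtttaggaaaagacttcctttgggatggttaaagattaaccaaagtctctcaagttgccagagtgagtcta
Hoxb4 (chr11:96318017-96318266, + strand): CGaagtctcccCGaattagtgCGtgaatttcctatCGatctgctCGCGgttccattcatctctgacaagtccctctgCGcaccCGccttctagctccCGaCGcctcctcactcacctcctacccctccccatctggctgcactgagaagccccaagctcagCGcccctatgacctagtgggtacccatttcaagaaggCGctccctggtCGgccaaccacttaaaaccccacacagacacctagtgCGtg
The CpG count was 6 for Hoxd8, 20 for Hoxd10, 7 for the Hoxa10 start shown and 14 for Hoxb4. A further Hoxa10 start was listed (chr6:52234940-52235189), whose window is not shown and had 20 CpG. Over the 22 Hox starts listed the median was 13 CpG per window, against 6 over all 32851 windows of the mouse. The Pbx-Hox motif TGATTNAT, searched on both strands, was found in 2 of the 22 Hox windows (9.09%) and in 2.82% of all windows. The motif TTTATNG of Cdx and posterior Hox proteins was found in 1 Hox window (4.55%) and in 9.81% of all windows. Counts this small do not show that the Hox windows differ from the others. Neither motif was found in the 4 windows shown, which says only that these letters are not there.

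Genes of the middle and posterior parts of the clusters were the most abundant. Per kilobase of exon, the 5 most abundant Hox genes over the 48 tumors were Hoxd8 (12.6 CPM per kb), Hoxa10 (12.0), Hoxa11 (10.8), Hoxc10 (8.41) and Hoxd9 (7.43). Hoxa10 and Hoxa11 are needed for the thigh and the lower leg, and Hoxc10 is a gene of the hind limb. The 16 genes of paralog numbers 9 to 13 summed to a median of 46.2 CPM per kb in primary and 63.5 CPM per kb in transplant tumors, the 14 genes of numbers 4 to 8 to 26.1 and 45.0, and the 7 genes of numbers 1 to 3 to 1.11 and 1.99. Hoxa9, Hoxa10, Hoxb4, Hoxc6 and Hoxd8 reached 1 CPM in all 48 tumors. Hoxa2, Hoxb13, Hoxd1 and Hoxd12 stayed under 1 CPM in all of them, and Hoxb13 and Hoxd12 had at most 3 counts in every library. A median of 20 Hox genes reached 1 CPM in a primary tumor (12 to 27) and of 24 in a transplant (22 to 26).

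**Figure D1:**
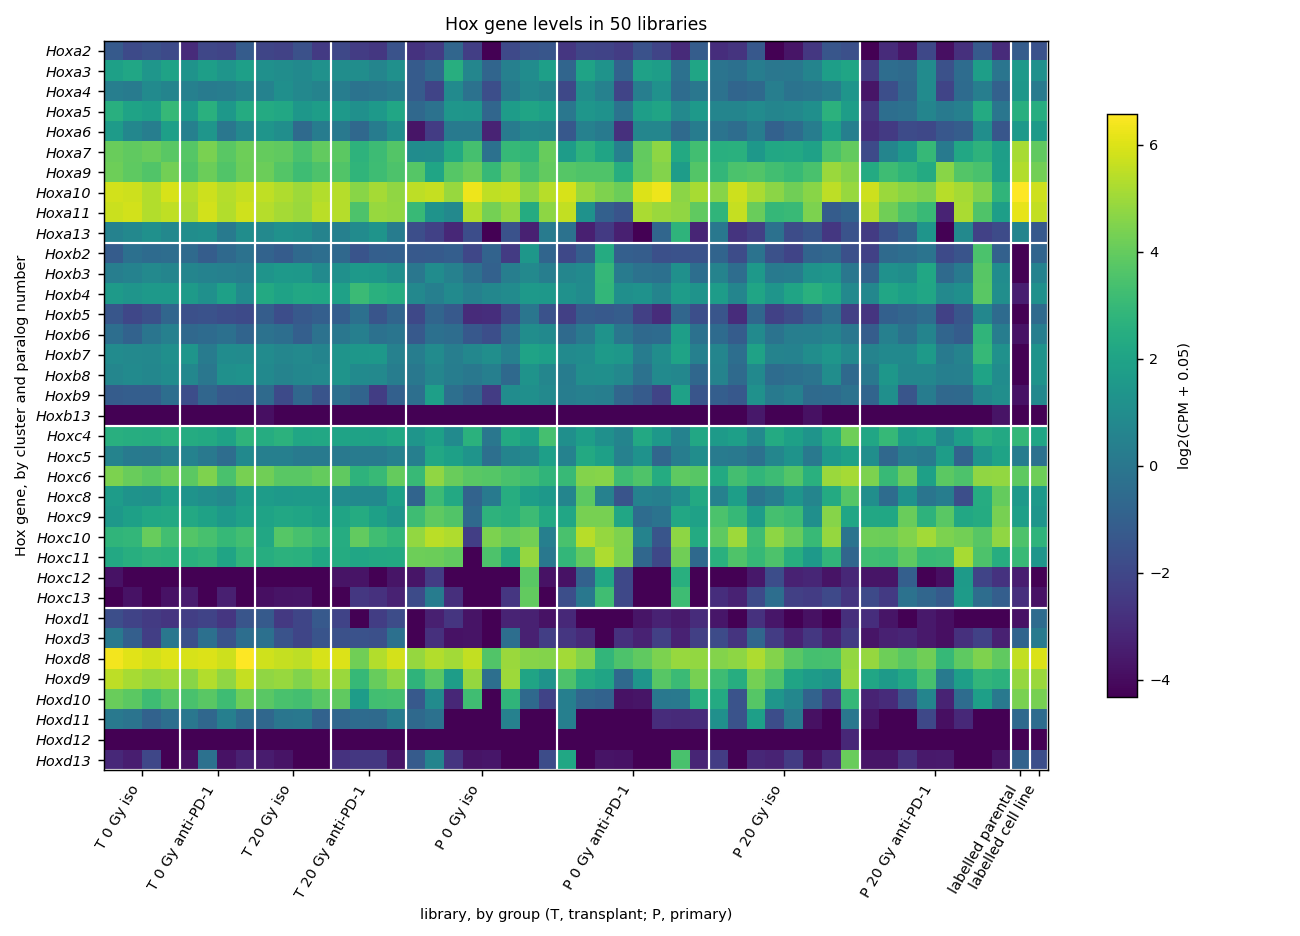
Levels of 36 Hox genes (rows, by cluster and paralog number) in 50 libraries (columns, by group), as log2(CPM + 0.05) in color. The 16 transplants on the left look alike, the 32 primary tumors differ from one another, and the Hoxb rows are dark in the library labelled parental tumor.

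No single Hox code was shared by the primary tumors. The Hoxa cluster held from 12.8 to 76.1% of all Hox reads in a primary tumor, with a median of 38.4%, and the Hoxc cluster from 4.91 to 65.6%, with a median of 36.9%. Hoxa held the most reads of the 4 clusters in 17 primary tumors, Hoxc in 14 and Hoxd in 1. In the transplants the shares kept to narrower ranges of 37.8 to 48.2% for Hoxa and 12.7 to 26.3% for Hoxc, and Hoxd held 21 to 43.1%. The Hoxb cluster was the least abundant by median share in both models, at 4.81% in primary and 4.18% in transplant tumors.

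Likeness between libraries was described by Spearman's rho over the 37 Hox genes, with no test. Pairs of transplants had a median rho of 0.97 (0.90 to 0.99, 120 pairs) and pairs of primary tumors 0.79 (0.36 to 0.96, 496 pairs). Pairs of a transplant with a primary tumor had a median of 0.80 (0.49 to 0.96, 512 pairs), near that of the primary pairs. The tumor most like each of the 16 transplants was another transplant, while for 3 of the 32 primary tumors it was a transplant. The transplants share one line of origin, and the libraries of each group share a treatment.

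The spread was largest at the posterior ends of Hoxa, Hoxc and Hoxd. Within groups, the SD of log2 CPM (prior count 2) had a median of 1.178 over the 35 Hox genes that passed the filter in primary tumors and of 0.376 in transplants, beside 0.516 and 0.399 over all 19327 genes tested. The SD was larger in primary tumors for 34 of 35 Hox genes and for 79.6% of all genes, and Hoxd1, which had few reads, was the exception (0.594 in primary, 0.740 in transplant tumors). Hoxa11 was the most variable Hox gene, with an SD of 2.487 in primary tumors, above that of 99.3% of the genes tested, and 0.453 in transplants. Hoxc12 and Hoxc13, which act in hair and nail and at the tail end of the body, followed with 2.306 and 2.294. The 3 lowest SDs among primary tumors were those of Hoxd1, Hoxb8 (0.624) and Hoxd8 (0.653).

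Hoxa11 ran from 0.0557 to 48.9 CPM in primary tumors with a median of 11.7 CPM, and 5 of the 32 were under 1 CPM. The lowest was replicate 5 of the 20 Gy and anti-PD-1 group, in which the other 7 tumors ran from 3.44 to 40.7 CPM. Hoxc10 ran from 0.151 to 43.1 CPM, with 24 primary tumors at 10 CPM or more and 3 under 1 CPM. Hoxc12 was above 1 CPM in 4 primary tumors, and 47.0% of its summed level in primary tumors came from replicate 7 of the 0 Gy and isotype group, at 13.9 CPM. That tumor was also the highest for Hoxc13, at 15.4 CPM. Hoxd13, which patterns the digits, was at 16.8 CPM in replicate 8 of the 20 Gy and isotype group and at 11 CPM in replicate 7 of the 0 Gy and anti-PD-1 group, with a median of 0.0314 CPM over the 32. The latter tumor was also the highest for Hoxa13, at 6.74 CPM. Replicate 7 of the 20 Gy and anti-PD-1 group stood apart in the Hoxb cluster, with the highest level of the primary tumors for 7 of the 9 Hoxb genes, Hoxb2 to Hoxb8, and with 26.1% of its Hox reads in Hoxb. Hoxb2 was at 11.2 CPM there and at 5.12 CPM in the next tumor.

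**Figure D2:**
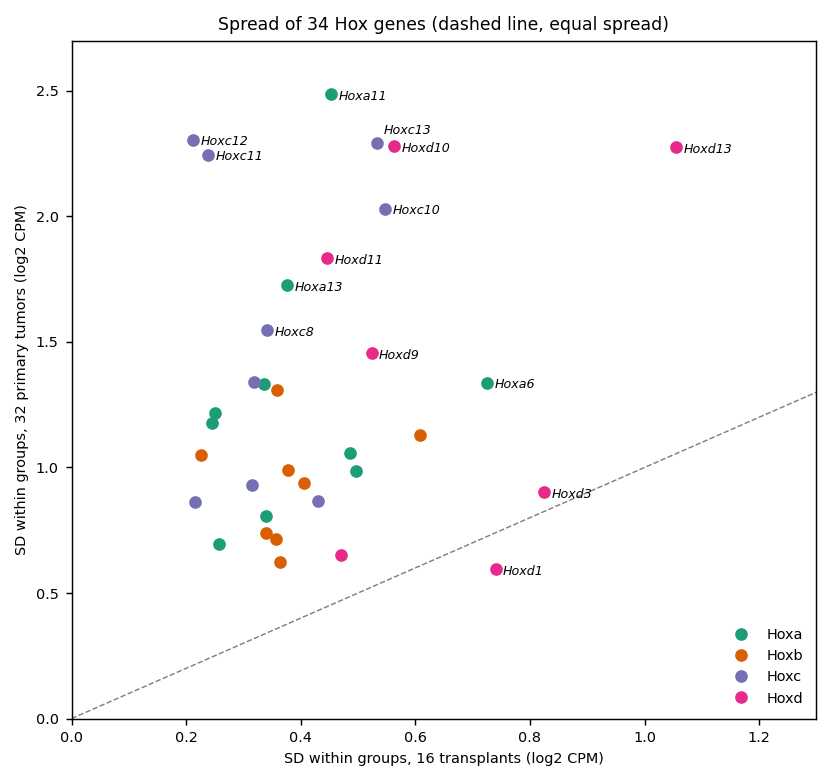
SD of log2 CPM within groups for 34 Hox genes that passed the filter, in 16 transplants (x axis) and 32 primary tumors (y axis), colored by cluster. Points above the dashed line of equal spread, 33 of 34, varied more among primary tumors, and Hoxa11, Hoxc10 to Hoxc13, Hoxd10 and Hoxd13 lie highest.

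Among primary tumors, neighbors in a cluster went up and down together. Spearman's rho of their levels around the group means over the 32 tumors had a median of 0.68 over 31 pairs of adjacent genes (0.28 to 0.93), 0.48 over 140 pairs within a cluster and 0.07 over 455 pairs from different clusters. Pairs with the same paralog number in different clusters had a median of 0.14 over 33 pairs. These values describe one set of libraries, whose genes share depth and cell makeup, and were not tested. Hoxa5 with Hoxa6 had the highest value, 0.93, and Hoxd9 with Hoxd10 reached 0.90. Hoxa10 with Hoxa11 was at 0.57, while Hoxa7 with Hoxa11 was at 0.13 and Hoxa4 with Hoxa10 at -0.22. Hoxc9, Hoxc10 and Hoxc11 had negative values with Hoxa11, at -0.69, -0.44 and -0.30.

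**Figure D3:**
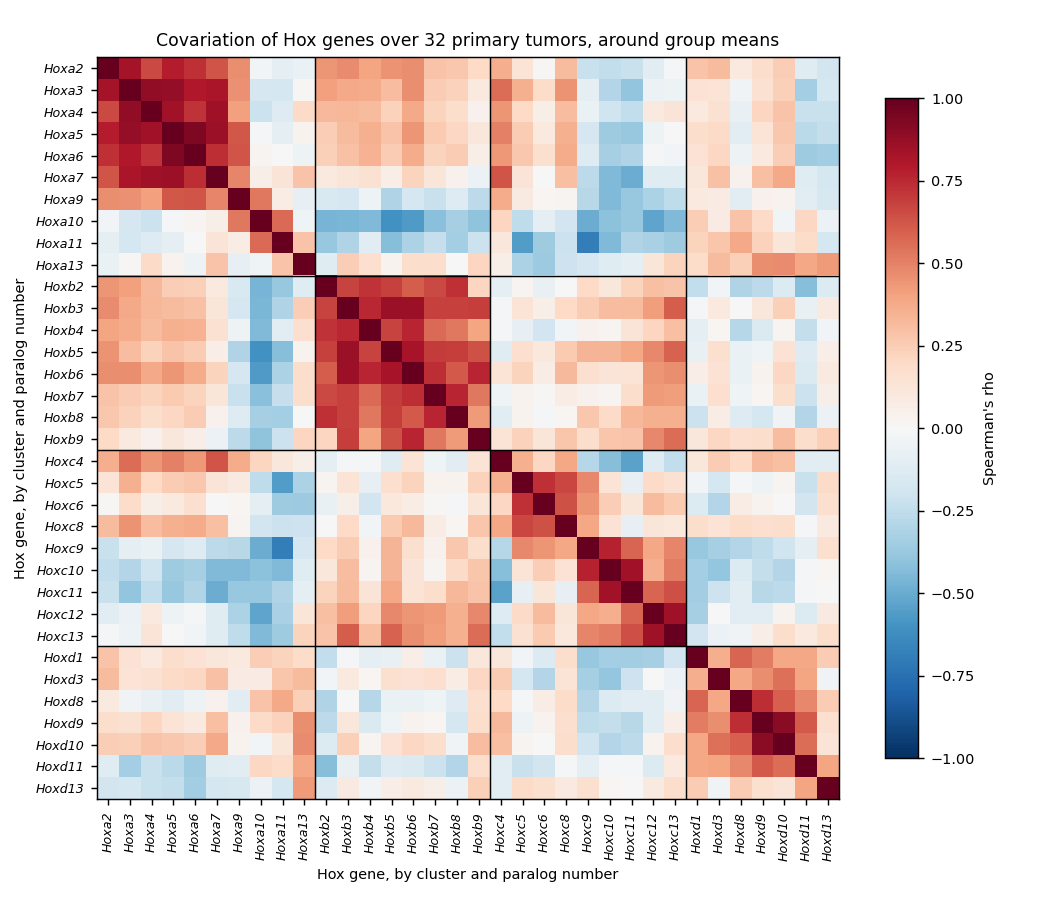
Spearman's rho between 34 Hox genes (both axes, by cluster and paralog number) over 32 primary tumors, from levels around the group means, with lines between clusters. Red blocks lie along the diagonal within each cluster (median 0.48 over all 35 tested genes), and the squares between clusters are paler (median 0.07).

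Whether the Hox code differed between the models was tested as transplant minus primary, averaged over the 4 treatments, with edgeR over all genes, and a log2 difference below is the fitted log2 fold change. Of the 35 Hox genes tested, 17 passed an adjusted p of 0.05 (48.6%), beside 34.8% of all genes. Higher in transplants were 11 Hox genes (background 15.7%) and lower were 6 (background 19.1%). The change had a direction by cluster: 6 of 7 Hoxd genes and 5 of 11 Hoxa genes rose, 4 of 9 Hoxc genes fell, 1 of 8 Hoxb genes and 1 Hoxd gene fell. The median size of the log2 fold change was 0.947 over the Hox genes and 0.253 over all genes tested. With the 0 Gy libraries alone 8 were called, without Hoxa6, Hoxa7, Hoxa11, Hoxa13, Hoxc5, Hoxc9, Hoxd11 and Hoxd13, and Hoxd1 was not tested there. The share of all genes called in that fit is not given here. The p-values take the 16 transplants as replicates, although they share 1 line.

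Hoxd8 passed the test in each treatment. Its level in the 4 transplants given 0 Gy and isotype was 83.5, 68.7, 57.6 and 65.7 CPM, and in the 8 primary tumors of that treatment it ran from 12.2 to 47.1 CPM with a median of 29.7 CPM. With 0 Gy and anti-PD-1 the transplants stood at 60.8, 64.2, 54.2 and 95.5 CPM, with 20 Gy and isotype at 54.6, 49.5, 45.0 and 59.9 CPM, and with 20 Gy and anti-PD-1 at 64.0, 18.4, 39.7 and 59.5 CPM. The models did not overlap in the first 3 of these treatments, while in the last 1 transplant lay within the primary range of 7.73 to 28.6 CPM. Over all 48 tumors 12 of 32 primaries lay below the lowest transplant and none above the highest. Averaged over treatments, Hoxd8 had a log2 difference of 1.41 (SE 0.165, edgeR adjusted p 8.32e-09).

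The next genes of the cluster went the same way. Hoxd9 ran from 7.94 to 49.9 CPM in transplants (median 29.8) and from 0.606 to 31.2 CPM in primary tumors (median 5.26), a log2 difference of 1.80 (SE 0.328, edgeR adjusted p 3.15e-05). Hoxd10, which patterns the spinal cord and limb at lumbar level, ran from 3.23 to 18 CPM in transplants (median 12.1) and from 0 to 13.0 CPM in primary tumors (median 0.646). Its log2 fold change was 2.74 (SE 0.521, edgeR adjusted p 5.81e-05), and 25 of 32 primaries lay below the lowest transplant. Hoxd11, of the forearm and lower leg, ran from 0.486 to 1.24 CPM in transplants (median 0.691) and from 0 to 3.56 CPM in primary tumors (median 0.0240), a log2 difference of 1.79 on average (SE 0.579, edgeR adjusted p 0.0138). With 20 Gy and isotype its log2 difference was -0.46 (SE 1.165, edgeR adjusted p 0.88). Hoxd1 and Hoxd3, at the other end of the cluster, were low in both models, with transplant medians of 0.179 and 0.303 CPM, and rose by 2.53 (SE 0.376) and 2.15 (SE 0.354) on the log2 scale. Of the exon bases of Hoxd3, 62.3% are shared on the same strand with Hoxd4 and a further gene model, so its counts are uncertain.

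Hoxd13 went against its neighbors, with a log2 difference of -2.52 (SE 1.003, edgeR adjusted p 0.0467). Its transplant levels ran from 0 to 0.778 CPM and 4 of 32 primary tumors lay above them. The call was lost in 25 of 48 fits that each left out 1 library. Its transplant counts summed to 79 over 16 libraries.

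Of the 11 Hoxa genes, Hoxa5, Hoxa6, Hoxa7, Hoxa11 and Hoxa13 rose and the others did not pass. Hoxa7 ran from 6.48 to 20.8 CPM in transplants (median 14.7) and from 0.221 to 26.1 CPM in primary tumors (median 4.72), a log2 difference of 1.23 (SE 0.300, edgeR adjusted p 0.00117), with overlapping ranges. Hoxa5 and Hoxa6 rose by 0.97 (SE 0.264) and 1.01 (SE 0.343). Hoxa11 rose by 1.27 (SE 0.459, edgeR adjusted p 0.0278) from 11.5 to 57.8 CPM in transplants, a range that 17 primary tumors shared and 15 lay below. Hoxa13, of the hand and foot plates and the urogenital tract, rose by 1.75 (SE 0.486, edgeR adjusted p 0.00411), with 28 of 32 primaries below the lowest transplant at 1.08 CPM. The most abundant Hoxa gene, Hoxa10, had a median of 40.6 CPM in transplants and 32.2 CPM in primary tumors and a log2 difference of 0.19 (SE 0.173, edgeR adjusted p 0.411).

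In the Hoxc cluster, Hoxc5, Hoxc9, Hoxc12 and Hoxc13 fell and the other 5 did not pass. Hoxc9, of the thoracic trunk, ran from 2.54 to 5.17 CPM in transplants (median 3.88) and from 0.603 to 24.5 CPM in primary tumors (median 6.26), a log2 difference of -1.09 (SE 0.331, edgeR adjusted p 0.00851), and 17 primaries lay above the highest transplant. Hoxc5 fell by 0.79 on the log2 scale (SE 0.253, edgeR adjusted p 0.0129). Hoxc13 and Hoxc12 had 20 and 4 counts in all over the 16 transplants, and their fitted log2 differences of -5.18 (SE 0.981) and -6.34 (SE 1.425) depend on how values near 0 are treated and are no measure of size. Hoxc10 had a log2 difference of -0.97 (SE 0.400, edgeR adjusted p 0.055) and Hoxc11 of -0.95 (SE 0.439, edgeR adjusted p 0.0909). In Hoxb, Hoxb9 fell by 1.33 on the log2 scale (SE 0.327, edgeR adjusted p 0.00129), from a primary median of 0.775 to a transplant median of 0.424 CPM, and the other 7 tested had log2 fold changes between -0.59 and 0.35.

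**Figure D4:**
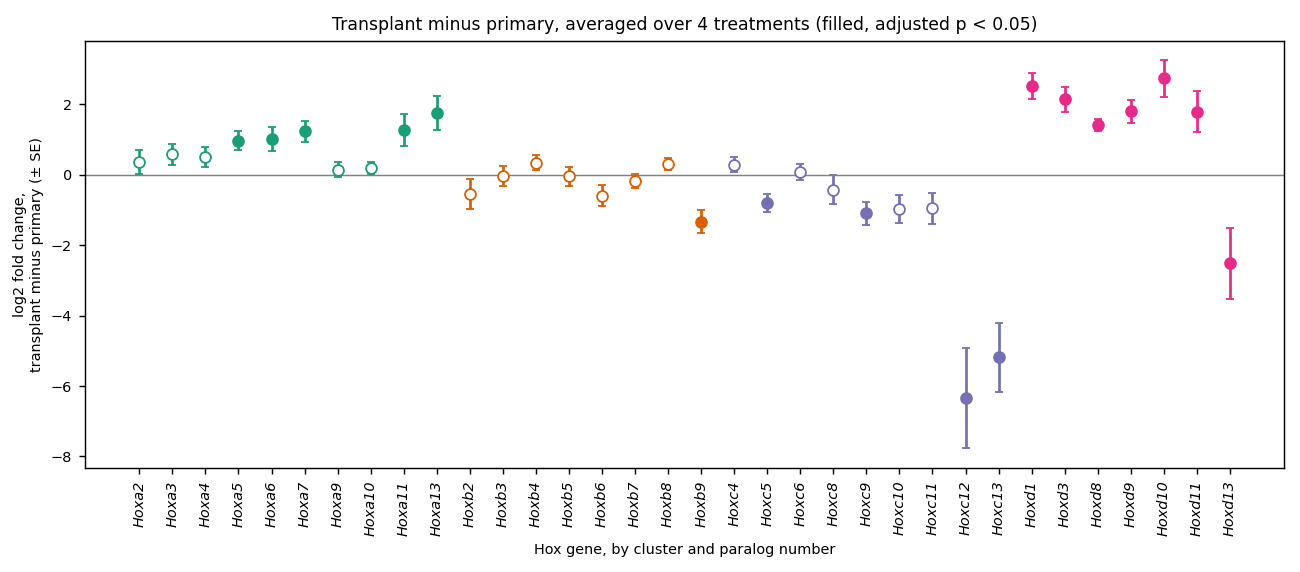
Log2 fold change of transplant minus primary tumors, averaged over the 4 treatments, for 34 Hox genes by cluster and paralog number, with bars of 1 SE and filled points for an edgeR adjusted p under 0.05. Points of Hoxd except Hoxd13 and the Hoxa genes shown lie above 0, those of Hoxc9 to Hoxc13 below.

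**Figure D5:**
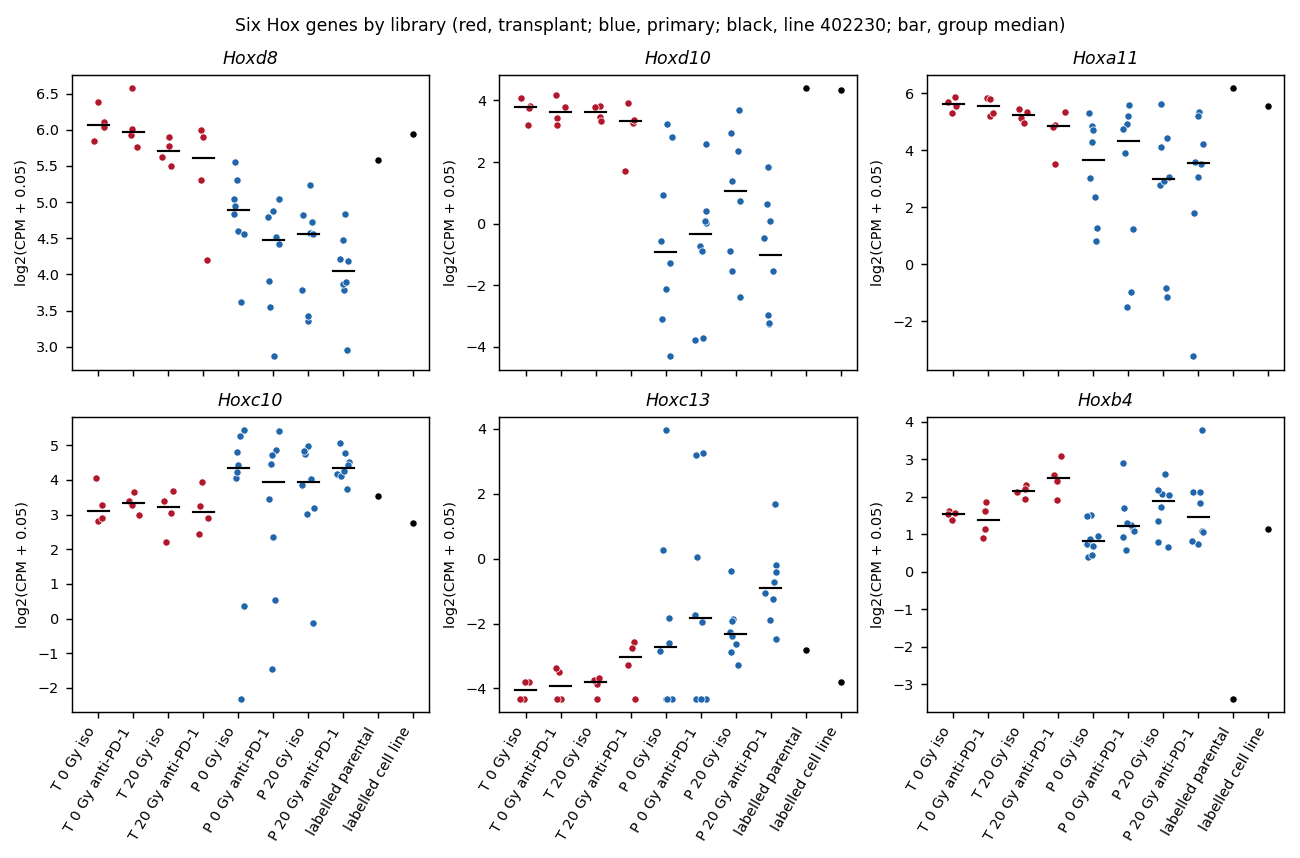
Levels of 6 Hox genes as log2(CPM + 0.05) in each library (red, transplant; blue, primary; black, line 402230), by group, with a bar at the group median. Red points of Hoxd8 and Hoxd10 lie mostly above the blue ones, and blue points of Hoxa11, Hoxc10 and Hoxd10 spread widely. The lowest point of Hoxb4 is the library labelled parental tumor.

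Other genes tied to Hox function were read beside them, against a background of 15.7% of all genes higher and 19.1% lower in transplants. Of 10 noncoding RNAs of the clusters, 8 were tested: 4 rose, among them Haglr in Hoxd (2.18, SE 0.358), Hoxa11os (1.51, SE 0.412) and Hotairm1 in Hoxa (1.05, SE 0.312), and Hotair in Hoxc fell (-1.50, SE 0.550), so that the calls followed the direction of their cluster. Hoxa11os overlaps 35% of the exon bases of Hoxa11 on the other strand, and the strand setting of the counting is not stated, so that reads of the pair may not be separate. Of 9 Hox cofactors, which bind DNA together with Hox proteins, Meis3 (0.95), Meis2 (0.56) and Pbx2 (0.14) rose and Meis1 fell (-1.12). Of 22 Polycomb and trithorax genes, which keep Hox genes silent or active, 7 rose, led by Bmi1 (0.29) and Jarid2 (0.28), and none fell, with a list median of 0.152 beside -0.002 over all genes. The share of this list that was called was near the 34.8% of all genes. Of 13 genes that flank the clusters 9 were tested, of which Snx10 (0.51), Skap2 (0.46) and Mtx2 (0.35) rose and Lnpk (-0.23) fell. Of 12 ParaHox and upstream genes 6 were tested, and the retinoic acid hydroxylase Cyp26b1 rose (1.33, SE 0.325).

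Among limb genes, the median of the hind limb gene Pitx1 was high in both models. Those of the hind limb gene Tbx4 and of the forelimb gene Tbx5 were low in both. Pitx1, which specifies the hind limb, ran from 16.1 to 92.6 CPM in transplants (median 59.1) and from 0.307 to 77.1 CPM in primary tumors (median 30.2), a log2 difference of 0.83 (SE 0.269, edgeR adjusted p 0.0139). Tbx4, its hind limb partner, had medians of 1.4 and 1.35 CPM and a log2 difference of -0.80 (SE 0.464, edgeR adjusted p 0.184). Tbx5, which specifies the forelimb, had medians of 0.0466 and 0.0222 CPM and was not tested, though it reached 5.73 CPM in 1 primary tumor. Of the 16 limb genes 15 were tested, of which 4 rose and 4 fell beside 15.7% and 19.1% of all genes, with Msx1 (2.21) and Msx2 (1.73) up and Lmx1b (-3.35), of the dorsal limb, and Hand2 (-1.76) down.

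Cell type markers moved with the model too, in a comparison that called 15.7% of all genes higher and 19.1% lower. Of 10 blood cell genes 5 rose (Cd3e by 1.34, Ptprc by 1.01) and none fell, and the summed level ran from 780 to 3140 CPM in transplants (median 2040) and from 744 to 3330 CPM in primary tumors (median 1210). Of 10 fibroblast and mesenchymal genes 7 fell (Lum by 2.36 on the log2 scale, Col1a2 by 1.24) and Twist1 rose, 2 of 4 adipose genes rose, 1 of 6 endothelial genes (Cdh5) fell, and no gene of the skeletal muscle (9) or the nerve list (5) passed. The summed lists had no gene at 0 in any tumor for blood, muscle, fibroblast and endothelial markers. With the blood cell list as a covariate 12 Hox genes were called, without Hoxa11, Hoxa13, Hoxc5, Hoxc9, Hoxd11 and Hoxd13 and with Hoxc4, and with the muscle list 17. The shares of all genes called in these fits are not given here, so a loss particular to Hox genes cannot be read from the counts. In bulk tumors fewer cells that use a gene and less RNA per cell cannot be told apart. The part of these cell types in the Hox changes was not tested beyond these covariates.

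Treatment by treatment, fewer Hox genes passed. With 0 Gy and isotype 3 did (background 10.3%), with 0 Gy and anti-PD-1 6 (7.35%), with 20 Gy and isotype 2 (4.87%) and with 20 Gy and anti-PD-1 5 (6.76%). Hoxd8 was among them each time, with log2 differences of 1.21, 1.74, 1.28 and 1.41. The counts fell to 0, 1, 0 and 1 when 1 library was left out, namely replicate 1 of the transplants (0 Gy and isotype), replicates 2 and 4 of the transplants (0 Gy and anti-PD-1), replicate 4 of the transplants (20 Gy and isotype), and replicates 1 and 3 of the transplants or replicate 5 of the primary tumors (20 Gy and anti-PD-1).

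Few Hox genes were called for radiation in primary tumors. The median size of the log2 fold change was 0.34 over the 35 Hox genes tested and 0.284 over all genes tested. Their median SD within groups of primary tumors was 1.178, beside 0.516 over all genes tested. At 20 Gy against 0 Gy, averaged over antibodies, 4 of 35 were called (background 31%), 1 higher (background 16.8%) and 3 lower (background 14.2%), while limma voom called none and DESeq2 3. Hoxa10 ran from 17.6 to 79.6 CPM at 0 Gy (median 43.6, n = 16) and from 7.05 to 54.1 CPM at 20 Gy (median 27.7, n = 16), a log2 difference of -0.52 (SE 0.202, edgeR adjusted p 0.0436) that was lost in 19 of 48 fits without 1 library. Hoxb4, which is used in blood stem cells, rose from a median of 1.99 to 3.40 CPM, by 0.68 on the log2 scale (SE 0.242, edgeR adjusted p 0.0294), and by 0.42 (edgeR adjusted p 0.121) without replicate 7 of the 20 Gy and anti-PD-1 group. The calls of Hoxa10 and Hoxb4 were also lost with the blood cell list as a covariate, with no filter and with the primary groups alone. Hoxc12 and Hoxc13 had log2 differences of -3.18 (SE 1.032, edgeR adjusted p 0.0176) and -2.49 (SE 0.811, edgeR adjusted p 0.0171). Both rested on replicate 7 of the 0 Gy and isotype group, without which they were -0.26 (edgeR adjusted p 0.89) and -0.90 (edgeR adjusted p 0.344). In the same comparison 6 of 10 blood cell genes (list median 0.742) and 8 of 9 muscle genes (list median 2.369) rose and none of these fell. The summed muscle level had a median of 1690 CPM at 0 Gy (62.7 to 7620) and of 1960 CPM at 20 Gy (13.9 to 85300). The medians were thus close, and the highest muscle sums were at 20 Gy.

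In transplants no Hox gene was called for dose by edgeR (background 7.23%), DESeq2 or limma voom, and 1 had an unadjusted p under 0.05, beside 19.5% of all genes. That gene was again Hoxb4, with a median of 2.88 CPM at 0 Gy and 4.73 CPM at 20 Gy, a log2 difference of 0.87 (SE 0.342, edgeR adjusted p 0.125) and no overlap between the 8 libraries of each dose (1.83 to 3.62 and 3.74 to 8.47 CPM). All 3 tools were fitted to the 8 groups together, so tests within transplants used a spread that the primary tumors helped to set. The median SD within groups over the Hox genes was 1.178 in primary tumors and 0.376 in transplants. No call within transplants is therefore not evidence of no change. With a fit to the transplants alone 4 Hox genes were called, and the share of all genes called in that fit is not given here. The summed level of all Hox genes ran from 252 to 384 CPM in the 8 transplants at 0 Gy and from 146 to 289 CPM in the 8 at 20 Gy, while 5 of 10 blood cell genes rose and their sum ran from 780 to 2125 CPM and from 1947 to 3142 CPM. Replicate 2 of the 20 Gy and anti-PD-1 group had the lowest Hox sum and the highest blood cell sum of the transplants. The part of the blood cells in the Hox levels was not tested.

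Anti-PD-1 against isotype called no Hox gene in primary tumors by edgeR (background 0.0155%) or limma voom and 1 by DESeq2. Of the 35, 8 had an unadjusted p under 0.05, beside 6.89% of all genes, with Hoxd11 the furthest at a log2 difference of -2.81 (SE 0.772, edgeR adjusted p 0.386). In transplants none was called by any of the 3 tools (background 0%), and none had an unadjusted p under 0.05, beside 1.98% of all genes. The interaction of radiation with the model called none by any tool (background 0.0259%) and had none at an unadjusted p under 0.05, beside 8.55% of all genes. That of anti-PD-1 with the model called none by any tool (background 0%) and had 1 at an unadjusted p under 0.05, beside 2.71% of all genes. A Hox response that differs between the models was not detected with these libraries.

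The 2 libraries of line 402230 differed from each other in Hoxb and in Hoxa, whose sum was 260 CPM in the library labelled parental tumor and 149 CPM in the library labelled cell line. Hoxd8 stood at 47.7 CPM in the library labelled parental tumor and at 61.4 CPM in the library labelled cell line, Hoxd9 at 28.7 and 30.4 CPM and Hoxd10 at 21.2 and 20.1 CPM, the last above all 48 tumors in both. Hoxa7 (35.1 CPM), Hoxa9 (39.7), Hoxa10 (94.2) and Hoxa11 (72.9) were above all 48 tumors in the library labelled parental tumor. Hoxa13 was at 1.45 CPM there and at 0.367 CPM in the library labelled cell line, below the lowest transplant, and Hoxd1 at 0.0227 and 0.648 CPM. Hoxb reads were few there: its 9 Hoxb genes had 4 counts in all of 48457411, with 6 genes at 0, for which a count of 0 allows up to 0.0682 CPM (3 counts, counting error only). The library labelled cell line had 569 Hoxb counts, and the tumors had 174 to 2600. Hoxb4, in every tumor at 1.26 CPM or more, was at 0.0455 CPM in the library labelled parental tumor and at 2.16 CPM in the other. The library with few Hoxb reads is also the one in which all 10 blood cell genes and 5 of 6 endothelial genes were under 1 CPM, and the part of host cells in the Hoxb levels of tumors was not tested.

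Over the 37 Hox genes, Spearman's rho with the library labelled parental tumor had a median of 0.82 in transplants (0.71 to 0.88) and 0.64 in primary tumors (0.38 to 0.81). With the library labelled cell line the medians were 0.93 (0.87 to 0.97) and 0.78 (0.46 to 0.94). For each of the 2 libraries, 14 of the 16 tumors most like it were transplants. The 2 libraries had a rho of 0.80 with each other. Without replicates these are descriptions.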

How the data were processed

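The deposited table held raw whole-number read counts per gene, with no normalization. Per the labels and the methods, the authors captured polyadenylated RNA, made stranded KAPA libraries from extracts with an RNA integrity number above 7, trimmed reads with Trimmomatic 0.36, aligned them to mm10 with STAR (5.5.4b in the submitters' processing notes) and counted them over GENCODE M17 with the HTSeq method. The paper's methods give another version of STAR. The strand setting is not given in the sources used here, so overlapping and antisense genes are uncertain. Groups came from the labels, and replicate numbers follow accession order and pair nothing.

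Of 37469 identifiers, 37408 matched a symbol in GENCODE M21 (GRCm38), 35419 with their version. No 2 libraries of a group agreed within sampling noise (lowest chi-square per degree of freedom 93.6 over 136 pairs). Counts of the 48 tumors were filtered with filterByExpr, which left 19327 genes and 35 Hox genes (not Hoxb13 and Hoxd12), scaled by TMM and fitted with edgeR 4.0.16 (R 4.3.3) in one robust quasi-likelihood model of the 8 group means with no covariate, from which 11 contrasts were taken. Two-sided p-values received the Benjamini-Hochberg adjustment across every gene tested (threshold 0.05). Levels are CPM with TMM over the 50 libraries, which shifted them by at most 0.081 (log2) against scaling over the tumors. The fit was tested on simulated data with known changes. DESeq2 1.42.0, limma 3.58.1 (voom), no filter, fits of the compared groups alone, marker lists as covariates and fits without each library were tried as alternatives. The endothelial covariate, the fits without each primary library and the library labelled cell line as a further untreated primary tumor were chosen after seeing the data.

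The Hox genes and the other lists were chosen with earlier results of these data known. Named were all Hox genes called between the models on average, the 5 most abundant per kilobase, those called for treatment, the 3 of largest and smallest spread, those with at most 3 counts in every library, Pitx1, Tbx4, Tbx5, Trp53 and up to 4 called genes of each other list. Further genes (Twist1 among them) and tumors named for their place in a range or a pattern were chosen after their values were seen. Values of 1 Hox gene are not reported here, although it is in the counts and medians over all Hox genes.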

Additional observations from a re-analysis of the deposited data

Results flagged for a closer look

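Over 19 Hox genes and 8 groups, 152 sets of tumors were looked at for a sample far from the rest of its group, and 16 were found. Chance gives about 1 in 20 for independent sets. These sets share tumors, neighboring genes go together and some values are near 0, so that rate does not hold here. The count is therefore not read as an excess. Among primaries with 20 Gy and anti-PD-1, Hoxa10 was low in replicate 8 (7.05 CPM, others 21.4 to 54.1) and Hoxa11 in replicate 5 (0.0557 CPM, others 3.44 to 40.7), and replicate 7 was high for Hoxa6 (2.02 CPM, others 0.0827 to 0.419) and Hoxb4 (13.6 CPM, others 1.63 to 4.36). Among primaries with 0 Gy and isotype, Hoxc12 was high in replicate 7 (13.9 CPM, others 0 to 0.140) and Hoxc9 low in replicate 4 (0.603 CPM, others 4.69 to 14.4). Hoxd11 was high in replicate 1 of the primaries with 0 Gy and anti-PD-1 (1.24 CPM, others 0 to 0.0801), and Hoxd13 in replicate 8 of those given 20 Gy and isotype (16.8 CPM, others 0 to 0.144).

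In transplants 8 such samples were found. With 0 Gy and anti-PD-1, Hoxa13 was low in replicate 3 (1.08 CPM, others 1.95 to 2.13) and Hoxd13 high in replicate 2 (0.778 CPM, others 0.0194 to 0.0494). With 20 Gy and isotype, Hoxa7 was low in replicate 3 (10.9 CPM, others 15.2 to 16.1). With 0 Gy and isotype, Hoxb9 was high in replicate 4 (0.715 CPM, others 0.396 to 0.425) and Hoxc12 in replicate 1 (0.0233 CPM, others 0). With 20 Gy and anti-PD-1, Hoxd13 was low (0.027 CPM, others 0.102 to 0.121) and Hoxd3 high (0.757 CPM, others 0.267 to 0.287) in replicate 4, and Hoxc12 was at 0 CPM in replicate 3 (others 0.0239 to 0.0270). The Hoxc12 values of transplants rest on single reads.

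In the libraries of line 402230, which entered no test, some Hox genes stood above all 48 tumors. In the library labelled parental tumor these were Hoxa4 (2.7 CPM, highest tumor 2.56), Hoxa7 (35.1 CPM, 26.1), Hoxa9 (39.7 CPM, 30.3), Hoxa10 (94.2 CPM, 79.6), Hoxa11 (72.9 CPM, 57.8) and Hoxd10 (21.2 CPM, 18). In the library labelled cell line they were Hoxd1 (0.648 CPM, 0.378), Hoxd3 (1.04 CPM, 1.03) and Hoxd10 (20.1 CPM, 18).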

How the results depend on the processing

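No paired analysis was possible because the labels give no replicate numbers that pair libraries. Between the models, averaged over treatments, 12 to 18 Hox genes were called under the other tools, filters, covariates and groupings, 8 with the 0 Gy libraries only, and 16 to 19 without 1 library, beside 17. Hoxa5, Hoxb9, Hoxc12, Hoxc13, Hoxd1, Hoxd3, Hoxd8, Hoxd9 and Hoxd10 kept their direction and call in every fit that tested them. In single treatments the counts moved to 10 with limma voom (0 Gy isotype), to 2 with no filter and 3 with the blood cell covariate (0 Gy anti-PD-1), and, for 20 Gy and anti-PD-1, to 2 with no filter, 2 with the blood cell covariate, 0 with the compared groups only and 3 with the library labelled parental tumor or cell line as a ninth untreated primary. Without 1 library these counts ran from 0 to 5, 1 to 7, 0 to 2 and 1 to 7. For dose in primary tumors the count of 4 moved to 0 with limma voom, 2 with no filter, 1 with the blood cell covariate, 2 with the endothelial covariate, 1 with the primary groups only, and 2 to 5 without 1 library, and Hoxc13 turned to 0.72 (adjusted p 0.559) with limma voom. For dose in transplants it moved from 0 to 4 with the transplant groups only and stayed at 0 without 1 library. For anti-PD-1 in primary tumors it moved from 0 to 1 with DESeq2 and ran from 0 to 1 without 1 library. The cause of these moves was not tested. Shares of all genes called under these other settings are not given here, so their counts of Hox genes have no background beside them. A threshold of 0.5 or 5 CPM gave medians of 25 or 8.5 Hox genes per primary tumor and 27 or 11 per transplant. Genes of few reads, such as Hoxc12, Hoxd1 and Hoxd13, limit what can be said.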
